A study of Mus musculus with 32 samples.

Results

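Of 18194 genes measured by at least 1 probe set assigned to a single gene, 60 rose and then fell within a day. The day began when cells that lack Ebf1 were given the drug that activates an Ebf1-ER fusion. At 24 h, 21 of the 60 were still at least 0.8 log2 units above their 0 h mean. The 60 genes were chosen by their values on the 8 arrays of the Ebf1-ER time course. Each gene was read from its most variable probe set there, and a gene was kept when the higher of its 6 h and 12 h means lay at least 0.8 log2 units above its 0 h mean and at least 0.8 above its 24 h mean. The first of these differences is called the rise below, the second the fall, and the smaller of both the height. Chemokines, immediate early genes, ribosome biogenesis, proteasome and several other families were left out by symbol, which removed 1 gene, Rrp1b. Because those arrays chose the genes, the time course is described without a test. The rule did not use the other 2 experiments, and the 60 genes were tested there.

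Ebf1 is a transcription factor that commits lymphoid progenitors to the B lineage, opening chromatin at B-cell genes and acting with Pax5, which follows it. A fusion to the ligand-binding domain of the oestrogen receptor keeps Ebf1 out of action until 4-hydroxytamoxifen is added, so that transcript levels can be followed from a defined start. A transient response is one that passes through a maximum, as ligands, receptors and kinases of cytokine pathways often do when feedback limits them. A fusion of Ebf1 to the Engrailed domain instead recruits co-repressors and works against Ebf1 at its own sites.

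The series held 32 Affymetrix whole-genome mouse arrays in 3 experiments. For the time course, Ebf1-/- progenitors from C57BL/6J E14.5 fetal livers were grown on OP9 stroma with KIT ligand, FLT3 ligand and interleukin 7 (10 ng/mL each), transduced with pMIG-Ebf1-ER, sorted for GFP, reseeded on OP9 and given 4-hydroxytamoxifen at 0.1 uM. RNA was taken at 0 h and after 6, 12 and 24 h, with 2 arrays per time. All 4 groups lack endogenous Ebf1 and carry Ebf1-ER, and no cells held for the same hours without the drug were analysed here, so the drug, the activated Ebf1 and the time since reseeding cannot be told apart. In the second experiment the 230238 pre-B cell line, a single line that has its own Ebf1, carried pMIG-Ebf1-engrailed on 3 arrays and the empty pMIG vector on 3, after sorting for GFP. In the third, live-sorted cells of 8 enlarged lymph nodes from C57BL/6J Ebf1+/-Pax5+/- mice of about 30 weeks were measured on 2 arrays each. Beside them stood pro-B cells sorted from wild-type C57BL/6J mice (numbers 621 and 622), 1 array each, with no age given in the labels. Each lymph node number and each wild-type number was read as 1 mouse, which the labels do not state. The labels do not say whether replicates of the first 2 experiments were separate cultures, so the p-values there cover only how far these samples scatter, and that scatter may be technical.

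All values are deposited log2 values centred on each probe set within an experiment, so a value above or below 0 is relative to the other arrays of that experiment. Levels of different genes, levels of a gene in different experiments, and whether a defining marker is present at all cannot be read from them. In the time course the 0 h arrays stood apart from the rest along the first principal component, which held 70.2% of the variance. Over all genes, 9.98% had a rise of 0.8 or more and 1.29% a fall of 0.8 or more, while 0.335% met both conditions. The mean of 16 stromal markers also declined along the course, from 0.90 and 0.36 at 0 h through 0.50 and 0.19 at 6 h and -0.06 and -0.24 at 12 h to -0.41 and -0.16 at 24 h. The first array of each pair read higher up to 12 h and lower at 24 h. The part of stromal cells in the values of the 60 genes was not tested. Total Ebf1 transcript, as its probe set read it, lay at 0.71 and 0.67 at 0 h and between -0.16 and 0.10 later; how far that probe set reads the Ebf1-ER transgene was not tested.

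Promoter sequences are shown because Ebf1 acts through DNA at the genes it binds. RefSeq promoters on GRCm38.p6, which run from 250 bases before to 50 bases after a transcription start, were found for 47 of the 60 genes. The core of the palindrome that Ebf1 binds, CCCNNGGG (the same on both strands), was in the window of 14 of these 47 genes (29.8%), against 19.7% of 14453 genes with a promoter of that length. The 4 genes of greatest height that hold it are printed 5′ to 3′ on the strand of the gene, with every match in capitals. They are Gucy1a1 (chr3:82145024-82145323, minus strand), Prodh (chr16:18089141-18089440, minus strand), the upstream one of 2 Npnt promoters (chr3:132950242-132950541, minus strand), in which 4 matches occur and a pair of them overlap, and Mdn1 (chr4:32656869-32657168, plus strand).
Gucy1a1: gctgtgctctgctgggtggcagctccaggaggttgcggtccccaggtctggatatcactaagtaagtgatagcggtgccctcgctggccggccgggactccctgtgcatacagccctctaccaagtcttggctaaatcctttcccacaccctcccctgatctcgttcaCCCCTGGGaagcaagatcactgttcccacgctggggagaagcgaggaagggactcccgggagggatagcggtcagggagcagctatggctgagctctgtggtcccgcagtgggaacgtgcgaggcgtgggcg
Prodh: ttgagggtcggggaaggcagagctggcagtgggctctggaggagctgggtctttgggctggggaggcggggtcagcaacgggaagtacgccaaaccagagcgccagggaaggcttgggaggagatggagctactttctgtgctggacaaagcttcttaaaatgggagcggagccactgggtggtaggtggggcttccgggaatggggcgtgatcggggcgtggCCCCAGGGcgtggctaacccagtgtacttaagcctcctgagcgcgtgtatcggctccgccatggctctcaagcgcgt
Npnt: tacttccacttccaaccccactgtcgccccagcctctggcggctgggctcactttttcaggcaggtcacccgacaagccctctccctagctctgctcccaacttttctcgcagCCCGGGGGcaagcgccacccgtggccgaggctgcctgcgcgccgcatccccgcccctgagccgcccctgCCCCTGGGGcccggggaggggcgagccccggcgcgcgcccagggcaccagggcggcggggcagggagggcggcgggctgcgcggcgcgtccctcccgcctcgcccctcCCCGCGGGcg
Mdn1: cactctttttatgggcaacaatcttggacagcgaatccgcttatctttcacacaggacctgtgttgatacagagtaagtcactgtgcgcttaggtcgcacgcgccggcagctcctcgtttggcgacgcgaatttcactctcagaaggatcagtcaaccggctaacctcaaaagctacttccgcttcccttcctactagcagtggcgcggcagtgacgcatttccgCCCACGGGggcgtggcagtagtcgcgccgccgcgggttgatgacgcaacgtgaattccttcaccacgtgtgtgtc
The match starts 82 bases before the transcription start in Gucy1a1 (offset -82), 27 before it in Prodh (offset -27) and 25 before it in Mdn1 (offset -25). A match of these letters is a description and shows neither binding nor an effect. The median GC content of the members' promoters was 60.3%, against 58.7% over all genes. Other motifs were counted on both strands, and no share was tested against that of all genes. The E-box CACGTG was in 6 members (12.8%, all genes 10.2%), the AP-1 site TGANTCA in 6 (12.8%, all genes 7.5%), the STAT site TTCNNNGAA in 5 (10.6%, all genes 8.6%) and the cyclic AMP response element TGACGTCA in 1 (2.1%, all genes 2.9%). No member's window held GGAATTTCC, TTTCGCGC or GCGCATGCG, the forms searched for NF-kB, E2F and NRF1, which were in 0.4%, 0.6% and 3.1% of all promoters.

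Most of the 60 genes were already at their maximum at the first time point. The mean was highest at 6 h for 41 genes and at 12 h for 19, and for 25 genes the 6 h and 12 h means lay within 0.3 of each other. The rise ranged from 0.81 to 5.42 with a median of 1.57, and the fall from 0.80 to 2.24 with a median of 0.98. In each of the 60, both arrays of the highest time lay above both arrays of 0 h and of 24 h. The rule makes this likely, since it set the means of these same arrays apart, and the share over all genes was not counted. The largest gap between the 2 arrays of a time had a median of 0.43 over the genes and reached 1.16.

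**Figure D1:**
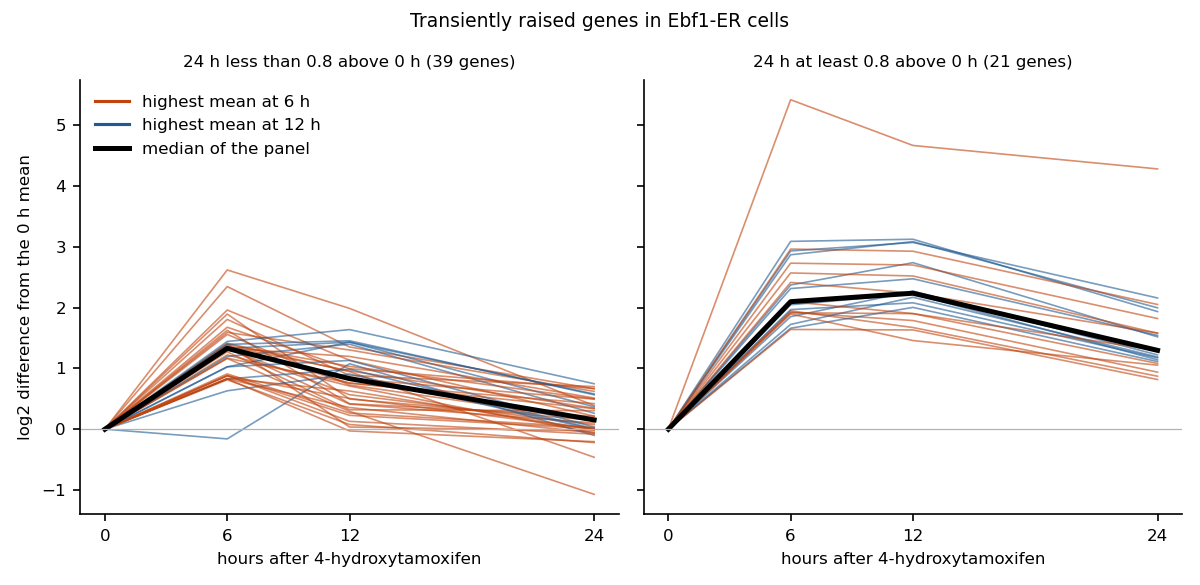
Course of each of the 60 genes as the log2 difference from its own 0 h mean (vertical axis) against hours after 4-hydroxytamoxifen (horizontal axis), as means of 2 arrays, with the genes highest at 6 h and at 12 h in different colours and the panel median in black. The left panel holds the 39 genes that had returned to less than 0.8 above 0 h at 24 h and the right panel the 21 that had not; the topmost line on the right is Ccn3.

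The fall was complete in some genes and partial in others. At 24 h, 38 genes lay within 0.8 of their 0 h mean, 21 were still at least 0.8 above it, and 1, Ctnnd2, was at least 0.8 below it. In 11 genes the 24 h mean was below the 0 h mean. Of the 21 that stayed high, 11 were highest at 6 h and 10 at 12 h. A further count separates quick from slow decline: in 11 genes the 12 h mean was already 0.8 or more below the 6 h mean.

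Among signalling genes, which form the largest group with 12 members, 9 were highest at 6 h. Lta encodes lymphotoxin alpha, a ligand of the tumour necrosis factor family that B-lineage cells secrete. Its arrays read -1.53 and -1.01 at 0 h, 0.64 and 0.72 at 6 h, 0.42 and 0.39 at 12 h, and -0.39 and -0.40 at 24 h, a rise of 3.86-fold. Il2ra, the alpha chain of the interleukin 2 receptor, read -0.995 and -1.42 at 0 h, 0.59 and 0.79 at 6 h, 0.11 and 0.39 at 12 h, and -0.19 and -0.11 at 24 h. Both genes were thus still above their 0 h arrays after a day, by 0.87 for Lta and 1.05 for Il2ra. Pim2, a serine/threonine kinase that cytokine and STAT signals induce, differed in this respect. Its arrays read -0.66 and -0.38 at 0 h, 0.86 and 0.93 at 6 h, 0.48 and 0.38 at 12 h, and -0.95 and -1.01 at 24 h, so that it ended below its start.

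Gucy1a1 encodes the alpha subunit of soluble guanylate cyclase, the receptor for nitric oxide, and had the third greatest height. It read -0.60 and -0.69 at 0 h, 1.32 and 1.30 at 6 h, 0.40 and 0.58 at 12 h, and -0.47 and -0.40 at 24 h, which is 3.89-fold up and 3.35-fold down. Mrvi1, a substrate of the cyclic GMP-dependent kinase downstream of that enzyme, was highest at 12 h (0.64 and 0.52, against -0.37 and -0.28 at 0 h). Ptger3, a receptor for prostaglandin E2, had a rise of 1.92 and a fall of 0.99. Perp, a p53 target in desmosomes and apoptosis, had a rise of 1.37 with 0 h arrays far apart, at -1.09 and -0.16. The remaining signalling members were Gria2, a glutamate receptor subunit, the calcium-binding proteins Ncs1 and S100a16, the membrane protease St14 and the hook-domain protein Ccdc88b, with rises between 0.81 and 1.64.

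All 8 genes for matrix and secreted proteins were highest at 6 h. Ccn3, a matricellular protein of the CCN family, had the largest rise of the 60. It read -4.32 and -4.60 at 0 h, 1.01 and 0.91 at 6 h, 0.15 and 0.26 at 12 h, and -0.15 and -0.21 at 24 h. This is 42.8-fold up to 6 h, and at 24 h Ccn3 was still 19.4-fold above 0 h. Its relative Ccn4 read -0.57 and -0.93 at 0 h, 1.31 and 0.81 at 6 h, 0.04 and 0.23 at 12 h, and -0.05 and -0.04 at 24 h. Both CCN genes had thus lost most of their excess over the 24 h level by 12 h, and Ccn4 dropped by 0.92 log2 units from 6 h to 12 h.

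Npnt (nephronectin, an integrin ligand of basement membranes) read 1.18 and 0.58 at 6 h against -0.10 and -0.79 at 0 h, so the arrays of a time differed by more than in Ccn3. Timp1 and Timp3 inhibit the metalloproteinases that degrade matrix. Timp1 had a rise of 1.37 and Timp3 one of 1.27, and Timp3 was back at 0.15 and -0.13 by 12 h. Cfp (properdin, which stabilises the complement convertase) had a rise of 1.59, Igfbp4, which binds insulin-like growth factors, 1.34, and Cgref1 1.68. OP9 stroma also makes matrix proteins, and the declining stromal markers given above stand beside this group. At 0 h and 6 h those markers read higher on the first array, as did Ccn3, Ccn4, Npnt, Timp1, Timp3 and Cgref1. Cfp read lower on the first array at both times, and Igfbp4 at 6 h. A link between these genes and the markers was not tested.

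Adhesion and cytoskeleton genes numbered 10, 8 of them highest at 6 h, and most came back close to their start. The median difference between 24 h and 0 h was 0.03 over these 10, against 0.56 over the matrix genes and 0.98 over the secretory genes. Dmd (dystrophin, which ties actin to the membrane) had the greatest height of all. It read -0.76 and -1.76 at 0 h, 1.40 and 1.32 at 6 h, 0.62 and 0.84 at 12 h, and -0.62 and -1.13 at 24 h. Cdh17, a cadherin of liver and intestine that early B cells also express, read -0.26 and -0.27 at 0 h, 1.25 and 1.47 at 6 h, -0.01 and 0.31 at 12 h, and -0.12 and 0.01 at 24 h. Csrp2, a LIM-domain protein, was equally brief, with 1.49 and 1.11 at 6 h and 0.00 and -0.14 at 12 h.

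Ctnnd2, a catenin of the p120 family, read -0.12 and -0.20 at 0 h, 1.08 and 0.92 at 6 h, 0.12 and 0.14 at 12 h, and -1.52 and -0.94 at 24 h. It ended 1.07 below its start. Apc, a scaffold of the complex that degrades beta-catenin, was high at 12 h, but its 2 arrays there read 1.61 and 0.45, the widest gap among the 60. Its 3 other probe sets had rises below 0, down to -0.13, so its place among these genes rests on 1 probe set. For Daam1, a formin that builds actin filaments, both other probe sets were likewise below their 0 h mean at 6 h and 12 h. The other members, Spire1, Epb41l1, Anxa8 and Mustn1, had rises between 0.83 and 2.57.

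**Figure D2:**
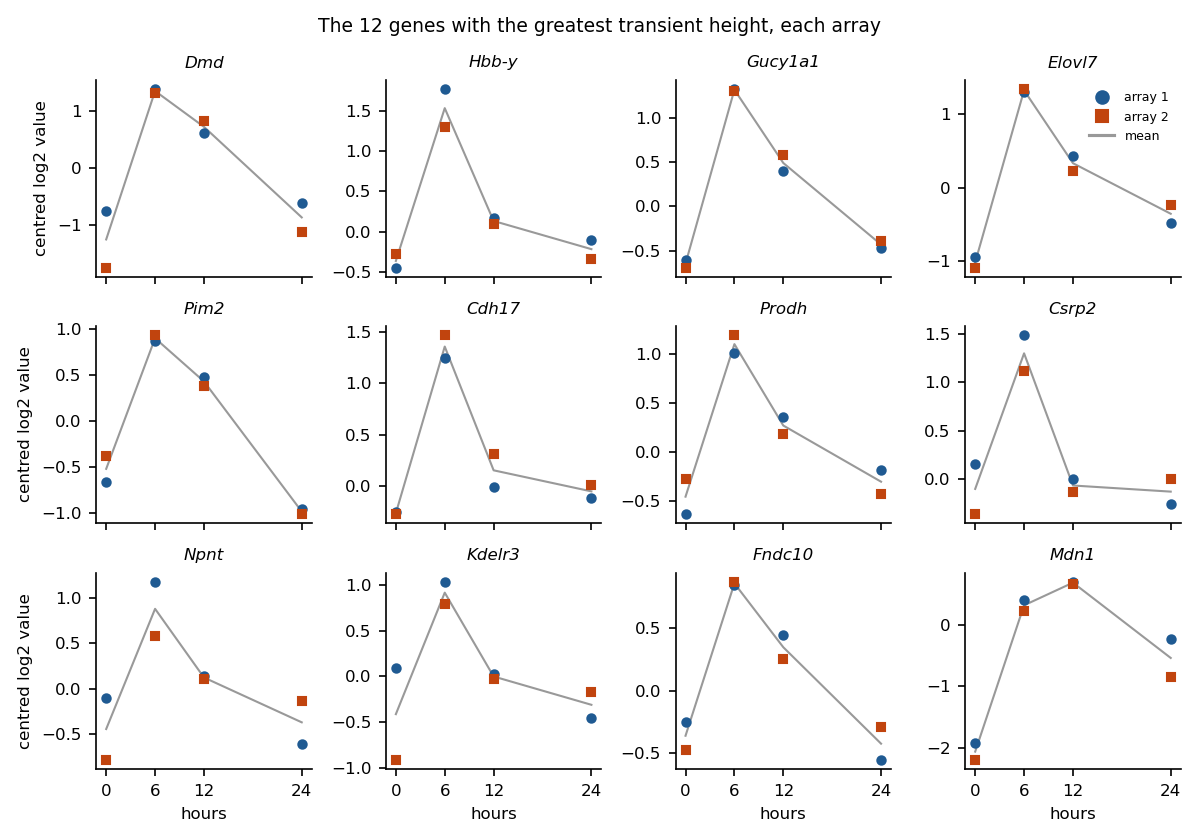
Centred log2 value (vertical axis, a separate scale in each panel) at 0, 6, 12 and 24 h (horizontal axis) for the 12 genes of greatest height, with circles for array 1, squares for array 2 and a line through the means. 11 of the 12 were highest at 6 h and Mdn1 at 12 h; the arrays of a time lie furthest apart at 0 h for Dmd and Kdelr3.

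Genes of the secretory pathway and of glycosylation contributed 6 members. Kdelr3, a receptor that returns chaperones to the endoplasmic reticulum, read 0.09 and -0.92 at 0 h, 1.04 and 0.80 at 6 h, 0.03 and -0.03 at 12 h, and -0.45 and -0.17 at 24 h. Arfgef3, an exchange factor of the ARF family, had the largest rise of the group, 8.72-fold, and was 3.82-fold above 0 h at 24 h. The glycosyltransferases St6galnac4, B4galnt4 and Gcnt1 had rises of 2.23, 2.41 and 0.88. Gcnt1, which starts core 2 branches on O-glycans, returned fully and lay 0.01 above its 0 h mean at 24 h. Tmem41a, a membrane protein of the endoplasmic reticulum, had a rise of 1.64.

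Metabolic enzymes and transporters numbered 9. Elovl7, an elongase of long-chain fatty acids, read -0.95 and -1.09 at 0 h, 1.31 and 1.35 at 6 h, 0.43 and 0.23 at 12 h, and -0.48 and -0.23 at 24 h. On the same arrays, each of its 5 further probe sets met the rule by itself. Prodh, the first enzyme of proline breakdown, was 2.95-fold up at 6 h (1.01 and 1.19, against -0.63 and -0.28 at 0 h). Car12 (a membrane carbonic anhydrase), Dctd (deoxycytidylate deaminase) and Mfsd2a (a lysophospholipid transporter) had larger rises, of 3.08, 3.07 and 2.47, but were still 2.00, 2.16 and 1.54 above 0 h at 24 h. Slc29a2, a nucleoside transporter, followed them with 2.08 and 1.17, while the sulphate donor enzyme Papss2 returned to 0.01 above its start. Sco2, needed to assemble cytochrome oxidase, and the exporter Abcc4 lay between, with rises of 1.39 and 1.43.

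The 3 transcription and clock genes were all highest at 12 h. Etv5, an ETS factor induced by growth factor signalling, read -1.31 and -1.76 at 0 h, 0.37 and 0.26 at 6 h, 0.76 and 0.71 at 12 h, and -0.37 and -0.26 at 24 h. Ppargc1b, a coactivator of mitochondrial genes, had a similar rise of 2.17, and the clock repressor Per2 one of 1.45. Of the RNA genes, Mdn1, an ATPase that matures the large ribosomal subunit, was 6.68-fold up at 12 h and 2.86-fold above 0 h at 24 h. Trmt61a, the catalytic part of a tRNA methyltransferase, had a rise of 2.96 and the splicing regulator Hnrnpa1 one of 1.43. Hbb-y, an embryonic beta-like globin, read -0.45 and -0.28 at 0 h, 1.77 and 1.29 at 6 h, 0.16 and 0.10 at 12 h, and -0.10 and -0.33 at 24 h. This probe set is of a type that can bind related transcripts, and of the other 2 Hbb-y probe sets 1 had a rise of 1.25 and 1 a rise of 0.24. Trgv1, a variable segment of the T-cell receptor gamma locus, had a rise of 2.10. For the last 7 genes, Tmem236, Tmem121, 8430416G17Rik, Gm1976, Fndc10, Lrrn4 and Mcrip2, rises lay between 0.83 and 2.73.

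Other probe sets were read on the same arrays that chose the genes, so they describe the course and do not test it. Their share over all genes was not counted. For 35 of the 60 genes there were 68 other probe sets. Of these, 53 were above both 0 h and 24 h at their higher time, but only 15, in 10 genes, passed 0.8 on both sides. The other probe sets of Mdn1 had rises of 0.04 and 0.07, and those of Npnt rises of 0.04 to 0.79. The other probe set of Il2ra had a rise of 0.57 and that of Ptger3 one of 0.26. Near the threshold the order of genes is set by small amounts. Just inside lay Ncs1 (height 0.82), S100a16 (0.81) and Trgv1 (0.80), and just outside Pkp2 (0.80, a rise of 0.94 and a fall of 0.7954), Cyba (0.79) and Ptger4 (0.79). A total of 38 genes met the rule in the arrays numbered 1 alone and in those numbered 2 alone. Without the second 6 h array 96 genes met the rule, 56 of them among the 60.

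Pathway lists that hold a member are given for comparison. The list of NF-kB components and targets, which holds Lta, had a median 6 h difference from 0 h of -0.36 over 41 genes, and the list of cytokine receptors and STAT signalling, with Il2ra and Pim2, one of -0.20 over 40. Early response genes and feedback regulators of ERK, with Etv5, had a median of -1.39 over 50. Nucleotide synthesis (37 genes, with Dctd and Slc29a2) and tRNA synthetases and modification (28 genes, with Trmt61a) lay at 1.36 and 1.19 at 6 h and at 1.52 and 1.16 at 24 h. These medians are given as a description of the same arrays.

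In 230238 pre-B cells, whose arrays the rule did not use, 16 of the 60 genes differed between Ebf1-Engrailed and the empty vector, and most of them were higher with the repressor fusion. Limma with Benjamini-Hochberg adjustment over 18194 genes called 12 higher and 4 lower at an adjusted p under 0.05. Of the 60 this is 26.7%, against 12.1% of all genes; for higher it is 20% against 6.88%, and for lower 6.67% against 5.27%. The median difference was 0.15 over the 60 and -0.01 over all genes. Groups did not overlap in 17 of the 60 on the higher side (15.3% of all genes) and in 7 on the lower side (14.9% of all genes). Ebf1 transcript, as its probe set read it, was lower with Ebf1-Engrailed, with a log2 change of -1.501 ± 0.23 (SE, limma, adjusted p = 0.0076). How far that probe set reads the Ebf1-Engrailed transgene was not tested.

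Matrix and secreted genes were the role with the most increases. Limma called 5 of the 8 higher and none lower, against 6.88% and 5.27% of all genes. The counts were the same at an unadjusted p under 0.05, against 2369 higher and 2187 lower of 18194 genes. Ccn3 read 0.94, 0.79 and 1.28 with Ebf1-Engrailed and -1.24, -0.79 and -1.72 with empty vector. The 2 groups lay far apart, and the change was 2.25 ± 0.24 (SE, n = 3 and 3, adjusted p = 0.002), or 4.77-fold. Its other probe set gave 2.72, and over the 16 called genes 18 of 19 other probe sets had the sign of the one used. Ccn4 read 1.00, 0.87 and 0.25 against -0.73, -0.25 and -0.64, a change of 1.25 ± 0.22 (adjusted p = 0.013). Cfp read 0.96, 1.06 and 0.89 against -0.94, -0.89 and -2.09, a change of 2.28 ± 0.31 (adjusted p = 0.0046). Its groups were separate, although the third empty vector array lay well below the others. Timp1 read 2.11, 2.16 and 0.50 against -0.60, -0.62 and -0.50, and the third Ebf1-Engrailed array was thus nearer to the controls than its companions (2.16 ± 0.42, adjusted p = 0.018). Igfbp4 changed by 0.44 ± 0.09 (adjusted p = 0.022). Npnt, Timp3 and Cgref1 were not called, at 0.06, -0.21 and 0.17.

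Hbb-y had the largest increase, from -0.97, -0.87 and -1.32 with empty vector to 1.27, 0.87 and 1.60 with Ebf1-Engrailed (2.30 ± 0.21, adjusted p = 0.0011). Among 11 erythroid and megakaryocyte markers, 1 was called higher and 1 lower. In the secretory group 3 of 6 were called higher, against 6.88% of all genes. Gcnt1 read 0.43, 0.73 and 1.29 against -0.60, -0.71 and -0.43 (1.39 ± 0.22, adjusted p = 0.0077), while Arfgef3 changed by 0.98 ± 0.22 (adjusted p = 0.03) and B4galnt4 by 0.79 ± 0.15 (adjusted p = 0.016). Il2ra changed by 0.63 ± 0.12 (adjusted p = 0.014), Gm1976 by 0.71 ± 0.17 (adjusted p = 0.036) and Elovl7 by 0.50 ± 0.09 (adjusted p = 0.012); each of the 5 other Elovl7 probe sets was higher too, by 0.21 to 0.47.

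**Figure D3:**
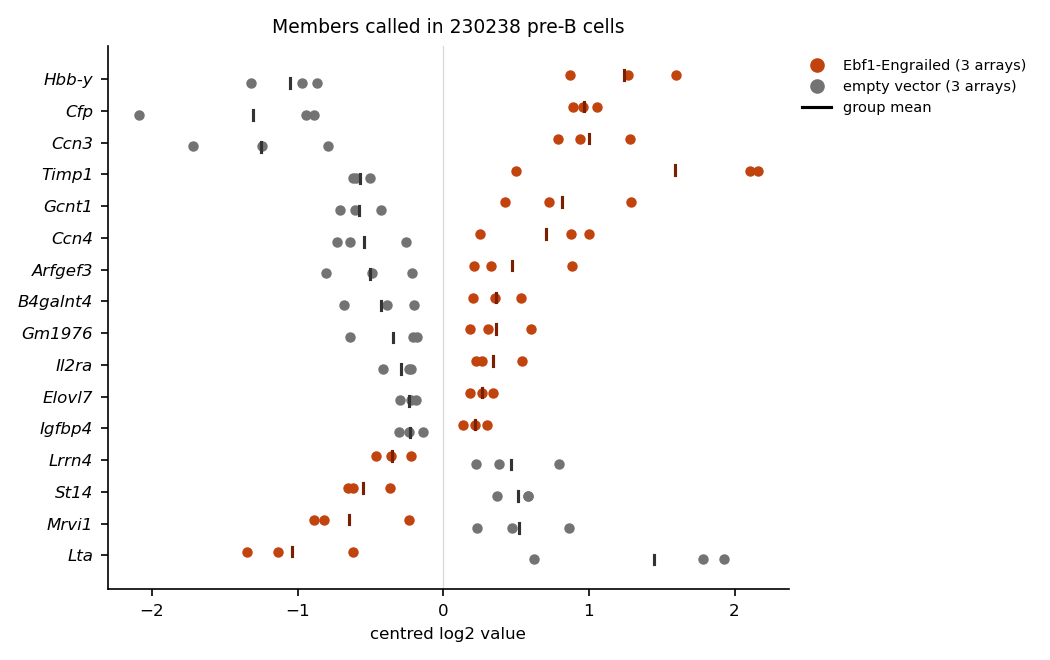
Centred log2 value (horizontal axis) of the 16 genes called in 230238 cells (rows) on the 3 Ebf1-Engrailed and 3 empty vector arrays, with short bars at the group means. The groups do not overlap in any row; Hbb-y, Cfp and Ccn3 lie furthest apart among the 12 higher genes and Lta among the 4 lower ones.

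The 4 decreases included 3 signalling genes. Lta read -1.35, -1.14 and -0.62 with Ebf1-Engrailed and 1.78, 1.93 and 0.62 with empty vector. Lta fell by 2.48 ± 0.36 (a log2 change of -2.48, adjusted p = 0.006), or 5.58-fold, with no overlap and with the third array of each group nearest to the other group. St14 read -0.66, -0.62 and -0.37 against 0.58, 0.58 and 0.37, a change of -1.06 ± 0.12 (adjusted p = 0.0021). Mrvi1 changed by -1.17 ± 0.22 (adjusted p = 0.017) and Lrrn4, a leucine-rich repeat membrane protein, by -0.81 ± 0.16 (adjusted p = 0.018). Lta and St14 were thus high after Ebf1-ER activation and low with Ebf1-Engrailed, whereas Ccn3 and Cfp were high in both settings.

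Adhesion and cytoskeleton genes had 0 of 10 called by limma in either direction, and at an unadjusted p under 0.05 the count was 2 higher and 1 lower. Over all genes 12.1% were called and 25% had an unadjusted p under 0.05, so counts this low in 10 genes are near those shares. Dmd changed by 0.44 ± 0.15 (adjusted p = 0.12), with all 3 Ebf1-Engrailed arrays above the controls, and Cdh17 by -0.41 ± 0.12 (adjusted p = 0.079). None of the 3 transcription and clock genes was called, also at an unadjusted p under 0.05, with changes between -0.15 and 0.15. Deviations of same-numbered arrays correlated at 0.249, 0.352 and 0.434, but those of 2 unmatched pairs did too (0.292 and 0.152). The values thus do not settle whether the numbers pair the samples. With the replicate number as a block, 3 further genes passed: Mfsd2a (1.13 ± 0.31, adjusted p = 0.06 without the block and 0.006 with it), Hnrnpa1 (-0.71 ± 0.19, 0.054 and 0.036) and Pim2 (-0.86 ± 0.34, 0.17 and 0.022). The blocked count was 13 higher and 6 lower, against 9.09% and 8.21% of all genes, so calls were gained over all genes as well.

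The number of calls depended on single arrays. The calls of Hbb-y, Cfp, Ccn3, Gcnt1, Lta and St14 held without any 1 of the 6 arrays, while the other 10 were lost in 2 to 5 of those fits, and fewer of all genes were called too. Without the first empty vector array 4 members were called higher (4.14% of all genes), without the second Ebf1-Engrailed array 5 (3.3%) and without the first 6 (3.31%). Markers of other cell types shifted slightly with the groups: the mean of 18 myeloid markers lay between 0.20 and 0.27 with Ebf1-Engrailed and between -0.29 and -0.15 with empty vector (3 called higher), and that of 18 T-cell markers between 0.15 and 0.20 and between -0.38 and -0.13 (3 called higher). Their part in the changes above was not tested.

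Lists that hold members behaved as follows in the same comparison, where 6.88% of all genes were called higher and 5.27% lower. No list was tested against these shares. Of 41 NF-kB genes 5 were called higher and 5 lower, of 40 cytokine receptor and STAT genes 4 and 5, and of 50 secreted cytokines and growth factors 8 and 4. Early response genes had 15 of 50 called higher and 5 lower. Nucleotide synthesis genes had 1 of 37 called higher and 9 lower, with Dctd at -0.04 and Slc29a2 at -0.25, neither called. Of 28 tRNA genes 1 was called higher and none lower, and of 34 p53 target genes 2 and 2.

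In the enlarged lymph nodes of Ebf1+/-Pax5+/- mice, 12 of the 60 genes differed from wild-type pro-B cells. Limma called 7 higher and 5 lower with the mean of each lymph node's arrays as a sample. This is 20% of the 60 against 16.9% of all genes, with 11.7% against 9.68% higher and 8.33% against 7.21% lower, so these shares lay near those of all genes. How near depended on the model: with single arrays and the lymph node as a random block, limma called 18 higher and 4 lower, 36.7% of the 60 against 19.7% of all genes. Groups did not overlap in 16 of the 60 on the higher side (14.6% of all genes) and in 6 on the lower side (11.7% of all genes). At an unadjusted p under 0.05 the count was 27 of 60 (45%), against 30.2% of all genes. The median difference was 0.45 over the 60 and 0.01 over all genes. These are bulk samples, in which fewer cells of a type and less RNA per cell cannot be told apart.

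The 2 wild-type arrays read higher than the lymph nodes for myeloid, stromal and erythroid markers, and these values stand beside every increase and decrease below. The mean of 18 myeloid markers was 4.74 and 4.99 in the wild-type arrays and between -0.85 and 1.04 in the lymph nodes, and 15 of the 18 were called lower in lymph nodes. The mean of 16 stromal markers was 0.98 and 1.07 against at most 0.27 (8 called lower), and 6 of 11 erythroid and megakaryocyte markers were called lower. Lymph node 279 stood apart with a T-cell marker mean of 2.42 and an NK-cell marker mean of 2.15, against at most 0.97 and 0.46 in the others. The part of these cells in the values of the 60 genes was not tested. Ebf1 was lower in lymph nodes (-0.83 ± 0.25, adjusted p = 0.046), where 1 allele is lost by genotype.

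Of the 7 increases, 3 were in metabolic genes: Car12, Dctd and Abcc4. Car12 ranged from -0.49 to 0.97 over the 8 lymph nodes with a median of 0.50 and read -1.65 and -1.90 in wild-type cells. No lymph node overlapped, and Car12 rose by 2.12 ± 0.35 (SE, n = 8 and 2, adjusted p = 0.0028), or 4.36-fold. The 2 other Car12 probe sets gave -0.05 and 0.34, so this too rests on 1 probe set. Dctd ranged from -0.67 to 1.32 with a median of 0.28, against -1.56 and -1.45 in wild type (1.80 ± 0.45, adjusted p = 0.022). St6galnac4 ranged from -0.52 to 0.73 with a median of 0.05, against -1.19 and -1.33 (1.38 ± 0.25, adjusted p = 0.0047). In Car12, Dctd and St6galnac4 alike, lymph node 292 was lowest and lymph node 381 highest.

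Igfbp4 ranged from -1.19 to 0.56 with a median of 0.01, against -1.25 and -1.34 in wild type, and lymph node 277 lay just above the wild-type arrays (1.21 ± 0.34, adjusted p = 0.037). Abcc4 (0.98 ± 0.29, adjusted p = 0.043), Gm1976 (1.08 ± 0.31, adjusted p = 0.04) and Trmt61a (0.88 ± 0.20, adjusted p = 0.015) completed the increases. Of the 7, Igfbp4 and Gm1976 were also higher with Ebf1-Engrailed. Genes that had stayed at least 0.8 above 0 h at 24 h of the time course had a median of 0.93 in this comparison, with 4 of 21 called higher and 1 lower. Over the 39 others it was 0.14, with 3 higher and 4 lower, and the difference between these medians was not tested.

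Of the lower genes, Papss2 was the most uniform. It ranged only from -0.10 to 0.13 over the lymph nodes, with a median of -0.02, and read 2.24 and 2.57 in wild-type cells. Papss2 changed by -2.41 ± 0.10 (adjusted p = 1e-07), or 5.33-fold lower. Its 3 other probe sets read -0.20, 0.04 and -0.51, so the size rests on 1 probe set. Cfp ranged from -0.78 to 1.29 with a median of -0.16, against 2.56 and 2.64 (-2.52 ± 0.52, adjusted p = 0.0092), and was thus lower here but higher with Ebf1-Engrailed. Myeloid cells make properdin, and the myeloid markers given above moved the same way. Prodh ranged from -0.94 to 0.95 with a median of -0.15, against 1.91 and 1.63 (-1.85 ± 0.47, adjusted p = 0.024). Apc (-1.04 ± 0.27, adjusted p = 0.027) and Ptger3 (-0.46 ± 0.12, adjusted p = 0.029) were called as well, but for Apc the mean of all probe sets gave 0.02, and for Ptger3 the probe set most variable in this experiment gave 0.26. Over the 12 called genes, 10 of 16 other probe sets had the sign of the one used.

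**Figure D4:**
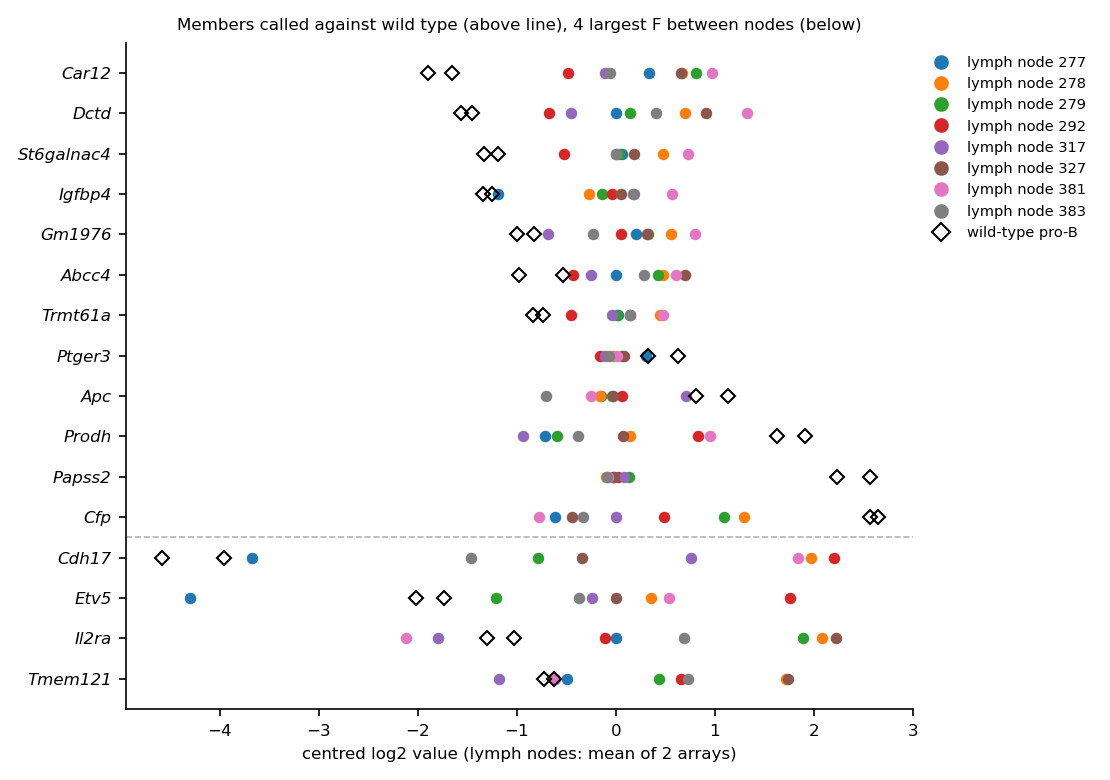
Centred log2 value (horizontal axis) of the 12 genes called against wild type (rows above the dashed line) and of the 4 genes that varied most between lymph nodes (below it), with 1 coloured point per lymph node (mean of 2 arrays) and open diamonds for the 2 wild-type arrays. The Papss2 points of the 8 lymph nodes lie within -0.10 to 0.13, while those of Cdh17 spread from -3.68 to 2.21.

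With both wild-type arrays the median difference over the members was 0.45. Without array 621 it was 0.43 (all genes 0.03), and without array 622 it was 0.44 (all genes 0.01). Calls are not given for the fits without 621 or 622, because each leaves 1 wild-type array. In these fits the lone wild-type sample is assumed to vary like the lymph nodes. Without lymph node 278, or without 327, 4 were called higher (8.02% and 7.94% of all genes), and without 292 the count was 12 (11.6% of all genes).

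The largest difference among the 60 was not called. Cdh17 ranged from -3.68 in lymph node 277 to 2.21 in lymph node 292, with a median of 0.21, and read -4.58 and -3.96 in wild-type cells. Every lymph node was above both wild-type arrays, but the change of 4.33 ± 1.35 did not pass (limma, adjusted p = 0.053). Lta ranged from -0.53 to 2.89 against -1.30 and -1.44 in wild type and was also above it throughout (1.78 ± 0.77, adjusted p = 0.15). Ccn3, with the largest rise in the time course, lay between -0.07 and 0.20 in 7 lymph nodes, at 3.40 in lymph node 279, and at -0.05 and 0.01 in wild-type cells.

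Most of the 60 genes differed between lymph nodes, as did most of all genes. Limma's moderated F test over the arrays of the 8 lymph nodes, with the scatter of paired arrays as its error, called 47 of 60 (78.3%), against 57.4% of all genes. With the least variable genes left out, 47 members were again called, against 69.3% of 13645 genes. That scatter may be technical, so the test says that lymph nodes differed, not why. Cdh17 had the largest F, with no 2 arrays of a lymph node more than 0.22 apart. Etv5 followed, ranging from -4.30 in lymph node 277 to 1.76 in lymph node 292 with a median of -0.12, and wild-type cells at -1.74 and -2.02 lay inside that range. Il2ra ranged from -2.12 in lymph node 381 to 2.22 in 327, with wild-type cells at -1.30 and -1.03. Tmem121 ranged from -1.18 in lymph node 317 to 1.74 in 327, with wild-type cells at -0.62 and -0.72. Lymph node 277 was thus at the bottom for both Cdh17 and Etv5, which were both among the transient genes of the time course. Daam1 and Papss2 stood at the other end, with the smallest F values, 0.51 and 0.64.

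**Figure D5:**
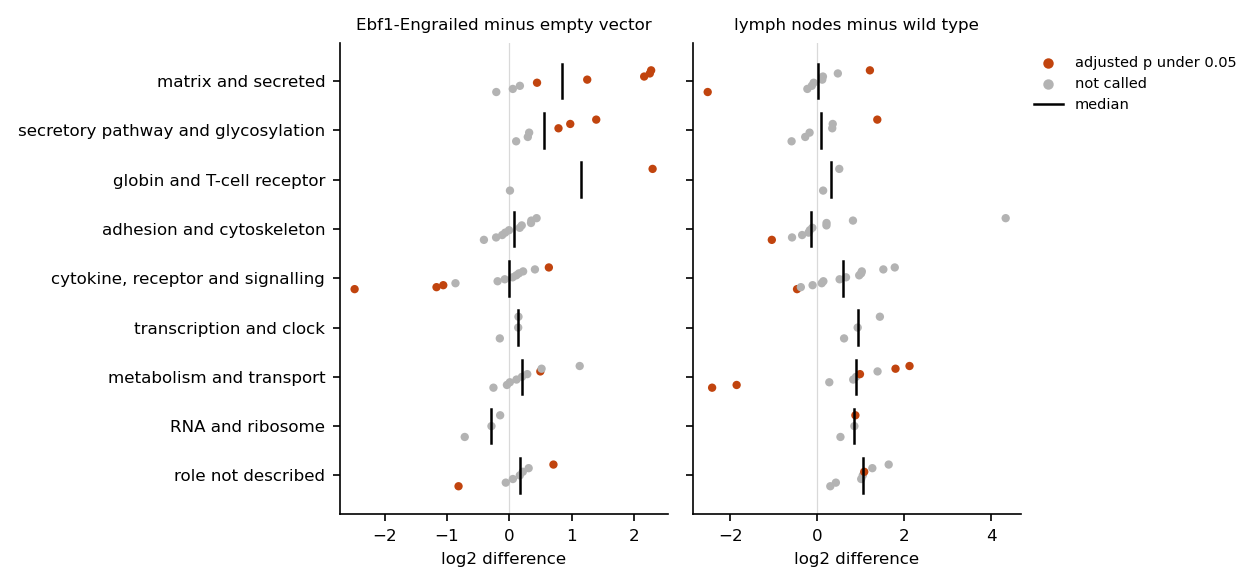
Log2 difference (horizontal axis) of each of the 60 genes by role (rows), Ebf1-Engrailed minus empty vector on the left and lymph nodes minus wild type on the right, with called genes in colour, the others in grey and a bar at the median of the row. On the left the matrix (median 0.85) and secretory (0.55) rows lie highest among rows of 6 or more genes, and on the right the metabolic row (0.89) holds both the largest number of called increases, 3, and 2 of the 5 decreases.

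The calls were spread over the roles as follows. Over all genes 6.88% were called higher and 5.27% lower with Ebf1-Engrailed, and 9.68% and 7.21% in lymph nodes. Matrix and secreted genes had 5 of 8 higher with Ebf1-Engrailed and 1 higher and 1 lower in lymph nodes, and metabolic genes 1 of 9 higher and then 3 higher and 2 lower. Signalling genes had 1 higher and 3 lower of 12 with Ebf1-Engrailed and 1 lower in lymph nodes. Of the pathway lists with members, nucleotide synthesis had 16 of 37 called higher in lymph nodes, with Dctd among them, and tRNA genes 17 of 28, with Trmt61a; neither list had a gene called lower. NF-kB genes had 1 of 41 higher and 8 lower, and cytokine receptor and STAT genes 4 of 40 higher and 2 lower. Whether role and comparison interact was not tested.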

How the data were processed

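Transcript abundance was measured on 32 one-colour Affymetrix arrays amplified from the 3' end of RNA. The authors deposited log2 values; the submitters' processing notes name RMA. No source used here states the base of the logarithm, which was read as 2. Every probe set had a median of 0 over the arrays of the 230238 experiment and of the time course, and array medians lay between -0.014 and 0.049. Filters and models that need expression levels could therefore not be used, and the number of arrays limits the precision.

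Of 45101 probe sets, 34958 had 1 gene symbol in the platform annotation, 932 several and 9211 none, and 34754 of the first were matched to the supplied gene table (GRCm38.p6). Each of 18194 genes was read in all experiments from its most variable probe set in the time course. Differences were tested with limma 3.58.1 in R 4.3.3 (with the data.table package, version 1.17.8), separately per experiment, two-sided, with Benjamini-Hochberg adjustment over all genes and a call at 0.05. For the comparison with wild type, each lymph node entered as the mean of its 2 arrays. The ± values are limma's standard errors. Scripts were tested on simulated data.

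The members, their roles and all lists were chosen with earlier results of these data known. Named genes are the 12 of greatest height, up to 4 members of each list, the called genes of largest change, the 4 of largest F and the 3 on each side of the threshold; others are named to account for every member. Same-numbered Ebf1-Engrailed and empty vector arrays, paired by the labels' replicate numbers, had deviations correlated at 0.249, 0.352 and 0.434. All exceed 0.1, so the numbers were taken to pair the samples, although 2 unmatched pairs also correlated (0.292 for Ebf1-Engrailed 1 with empty vector 2, and 0.152 for 2 with 1). Alternatives were other probe set rules, thresholds, a variance filter, robust variances, blocks and leaving out arrays. Leaving out each lymph node was chosen after seeing the data. Genes without a RefSeq promoter entry were not searched.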

Additional observations from a re-analysis of the deposited data

Results flagged for a closer look

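Among the 60 genes, 11 had 1 lymph node whose gap to the nearest of the other 7 exceeded the 95% critical value of Dixon's test for 8 values (0.526 of the range). This is 18.3% of them, against 10.6% of all 18194 genes, where chance gives about 1 in 20 groups. Lymph node 277 was high for Arfgef3 (2.65, next 0.08), Dmd (0.77, next 0.00) and Perp (0.57, next 0.11). Lymph node 381 was high for Fndc10 (1.74, next 0.59), Ncs1 (1.00, next 0.05) and 8430416G17Rik (0.56, next 0.12). Lymph node 279, which also had the highest T-cell and NK-cell markers, was high for Ccn3 (3.40, next 0.20) and Trgv1 (1.28, next 0.40). Spire1 was high in lymph node 278 (1.22, next 0.22). Mdn1 was low in lymph node 292 (-0.80, next -0.10) and Lrrn4 in lymph node 317 (-2.01, next -0.12). These are centred log2 values, means of 2 arrays.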

How the results depend on the processing

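With a threshold of 0.6 the rule kept 215 genes and with 1.0 it kept 26. Leaving out single arrays, or all arrays of 1 replicate number, gave 56 to 96. With probe sets averaged per gene it kept 41, of which 38 were among the 60.

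For Ebf1-Engrailed, leaving out 1 array gave 4 to 13 higher (3.3% to 8.76% of all genes) and 2 to 6 lower (2.24% to 6.64% of all genes). The median over the members was then 0.10 to 0.17. The replicate block, which pairs the arrays by number, gave 13 higher and 6 lower (9.09% and 8.21% of all genes) and, beside the 3 genes named with it, changed no other call. For the lymph nodes, leaving out a wild-type array gave 0 to 2 higher and 1 lower (the count at an unadjusted p is given with the calls), and leaving out a lymph node 4 to 12 higher and 4 to 6 lower, with medians of 0.37 to 0.48. The lymph node as a random block gave 18 higher (30% of the 60, all genes 12.1%) and the variance filter 12 (all genes 12.8%). The mean of all probe sets gave 3 lower (all genes 7.71%). Apc turned to 0.0232 (adjusted p = 0.95) with the mean of all probe sets, and Ptger3 to 0.26 (adjusted p = 0.34) with its probe set of largest variance in that experiment (limma); the cause was not tested.

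Of single-gene values under alternatives, 1420 kept their side of the threshold, 50 gained a call, 73 lost one and 2 reversed. Centred values hold no signal over background.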
